A study of Homo sapiens with 14 samples.

Results

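The miR-130, miR-301 and miR-454 family is a set of microRNAs joined by their seed, the bases near the 5′ end through which a microRNA recognises its target mRNAs. Its 7 members are the mature microRNAs hsa-miR-130a-3p, hsa-miR-130b-3p, hsa-miR-301a-3p, hsa-miR-301b-3p and hsa-miR-454-3p, together with hsa-miR-130b-5p and hsa-miR-454-5p from the opposite arms of 2 of the hairpins. They were chosen by name from the 2588 mature microRNAs in each of the 2 count tables of the study. The study mapped N7-methylguanosine (m7G), a guanine with an added methyl group, in the small RNA of A549 cells, a human lung adenocarcinoma line grown without any treatment or genetic change. In BoRed-seq, total RNA from these cells was decapped and reduced with NaBH4, m7G sites were turned into sites without a base, and a biotin probe on those sites drew the RNA onto streptavidin beads. The 2 Red libraries came from reduced RNA and the 2 Ctrl libraries from RNA given NaBH4 that acid had already quenched. The study's protocol takes both through the acid step and the probe reaction, so Ctrl is mock-treated RNA and not starting RNA. In m7G-RIP-seq, heat-denatured RNA was pulled down with an antibody against m7G, giving 5 IP libraries beside 5 libraries of the starting RNA (Input). All 14 libraries came from 1 cell line, and the labels do not say whether replicates were separate cultures, so the p-values below measure the spread between libraries, which may be technical.

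A microRNA hairpin is cut out of a long primary transcript by DROSHA and trimmed by DICER, which leaves a short duplex of a 5p and a 3p strand. Usually 1 strand stays in Argonaute and guides it to target mRNAs, while its partner is degraded. In this family the 3p strands carry the shared seed, and members are known to repress PPARG, a nuclear receptor of lipid metabolism, in work on hypoxia and pulmonary hypertension.

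The mature sequences are printed because both pulldowns act on guanines and because the seed defines the family. They are RefSeq entries on GRCh38.p14, matched for 6 of the 7 members, and hsa-miR-130a-3p had no entry in that table. Capitals mark the seed, bases 2 to 8 counted from the 5′ end.
hsa-miR-130b-3p: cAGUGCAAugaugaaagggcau
hsa-miR-301a-3p: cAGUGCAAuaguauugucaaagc
hsa-miR-301b-3p: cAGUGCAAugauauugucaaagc
hsa-miR-454-3p: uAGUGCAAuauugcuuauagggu
hsa-miR-130b-5p: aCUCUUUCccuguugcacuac
hsa-miR-454-5p: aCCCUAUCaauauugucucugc
The 4 seed-bearing strands shown share AGUGCAA and differ after it. hsa-miR-301a-3p and hsa-miR-301b-3p were identical at 21 of 23 positions, the changes from the former to the latter being A10G and G11A, so reads with errors there could be counted for the wrong member. The 5p strands have seeds of their own, CUCUUUC and CCCUAUC. They were also poor in guanine, with 2 each, against 7 in hsa-miR-130b-3p, 6 in hsa-miR-454-3p and 5 in each miR-301 strand. The complement of the family seed, UUGCACU, lay in hsa-miR-130b-5p and in 8 of 2370 mature sequences of the table (0.338%), searched on the printed strand only.

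The genes lie at 3 places in the genome. MIR130A was at chr11:57641198-57641286 on the plus strand of hg38 (GENCODE v44), in an intron of the lncRNA MIR130AHG. MIR301A (chr17:59151136-59151221) and MIR454 (chr17:59137758-59137872) both lay on the minus strand in introns of SKA2, a gene of the spindle and kinetochore, 13263 bases apart. MIR301B (chr22:21652981-21653058) and MIR130B (chr22:21653304-21653385) lay on the plus strand 245 bases apart within 1 lncRNA, the former in an intron and the latter in an exon. The hairpins of miR-130b and miR-454 are shown, since each gave a measurable strand from either arm. Capitals mark the 5p arm, which comes first, and the 3p arm.
MIR130B: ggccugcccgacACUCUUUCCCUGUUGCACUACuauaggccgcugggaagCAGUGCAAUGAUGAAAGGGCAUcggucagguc
MIR454: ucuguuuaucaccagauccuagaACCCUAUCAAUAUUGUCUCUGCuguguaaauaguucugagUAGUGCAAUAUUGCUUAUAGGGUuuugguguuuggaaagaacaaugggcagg
Of the patterns that the study searched for as marks of folded guanine stretches, 1 was looked for here, 4 runs of at least 2 G separated by 1 to 7 bases. It was in none of the 4 family hairpins with a sequence in the table and in 456 of 1560 hairpins there (29.2%). Only the hairpin strand was searched, and no MIR301B hairpin was in the table.

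Depth set what could be seen. Library totals over all microRNAs were 242085 and 277498 counts in Red, 4678102 and 5874405 in Ctrl, 2854811 to 6452759 in IP and 7097379 to 14874685 in Input. A count of 0 in the smaller Red library allows a level of up to 12.4 CPM, the level of 3 counts (CPM is a count scaled to the same library total in every library), and CPM limits and intervals cover counting error only. Enrichment was tested with DESeq2 on 453 BoRed-seq and 670 m7G-RIP-seq microRNAs that passed a minimum of 10 counts in 2 or 5 libraries, and a microRNA was called at a Benjamini-Hochberg adjusted p under 0.05. Of the 7 members, 5 passed this filter in each assay, and hsa-miR-301a-3p and hsa-miR-301b-3p passed in neither.

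The family was present at modest levels, and the order of its members was not the same in the 2 kinds of control RNA. In Ctrl, hsa-miR-454-3p was the most abundant at 30.8 ± 1.85 CPM, followed by hsa-miR-130a-3p at 17.9 ± 4.88 and hsa-miR-130b-5p at 11.7 ± 4.43 (SD, n = 2). hsa-miR-130a-3p and hsa-miR-130b-5p overlapped between libraries, while each other neighbour in the order was separated in both. Below them stood hsa-miR-130b-3p at 3.84 CPM, hsa-miR-454-5p at 2.52, hsa-miR-301a-3p at 0.982 and hsa-miR-301b-3p at 0.491. In Input, by contrast, hsa-miR-130b-5p led with 110.6 ± 25.0 CPM, above hsa-miR-454-3p at 45.9 ± 15.1 (SD, n = 5). hsa-miR-130a-3p at 16.1 ± 3.11 CPM and hsa-miR-454-5p at 14.5 ± 2.90 overlapped, and hsa-miR-130b-3p followed at 5.69 ± 1.99 (SD, n = 5). The miR-301 strands, at 0.409 and 0.223 CPM, overlapped at the bottom.

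After either pulldown hsa-miR-130b-5p led the family. It stood at 104.4 ± 10.1 CPM in Red (SD, n = 2) and at 199.9 ± 22.3 CPM in IP (SD, n = 5), above every other member in each of those libraries. The share of the family's counts that came from the 5 seed-bearing 3p strands was 73.2% and 84.8% in the Ctrl libraries and 11.8% and 26.8% in the Red libraries. It was 26.2% to 47.2% in Input and 11.5% to 28.2% in IP, where the 2 groups overlapped.

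**Figure D1:**
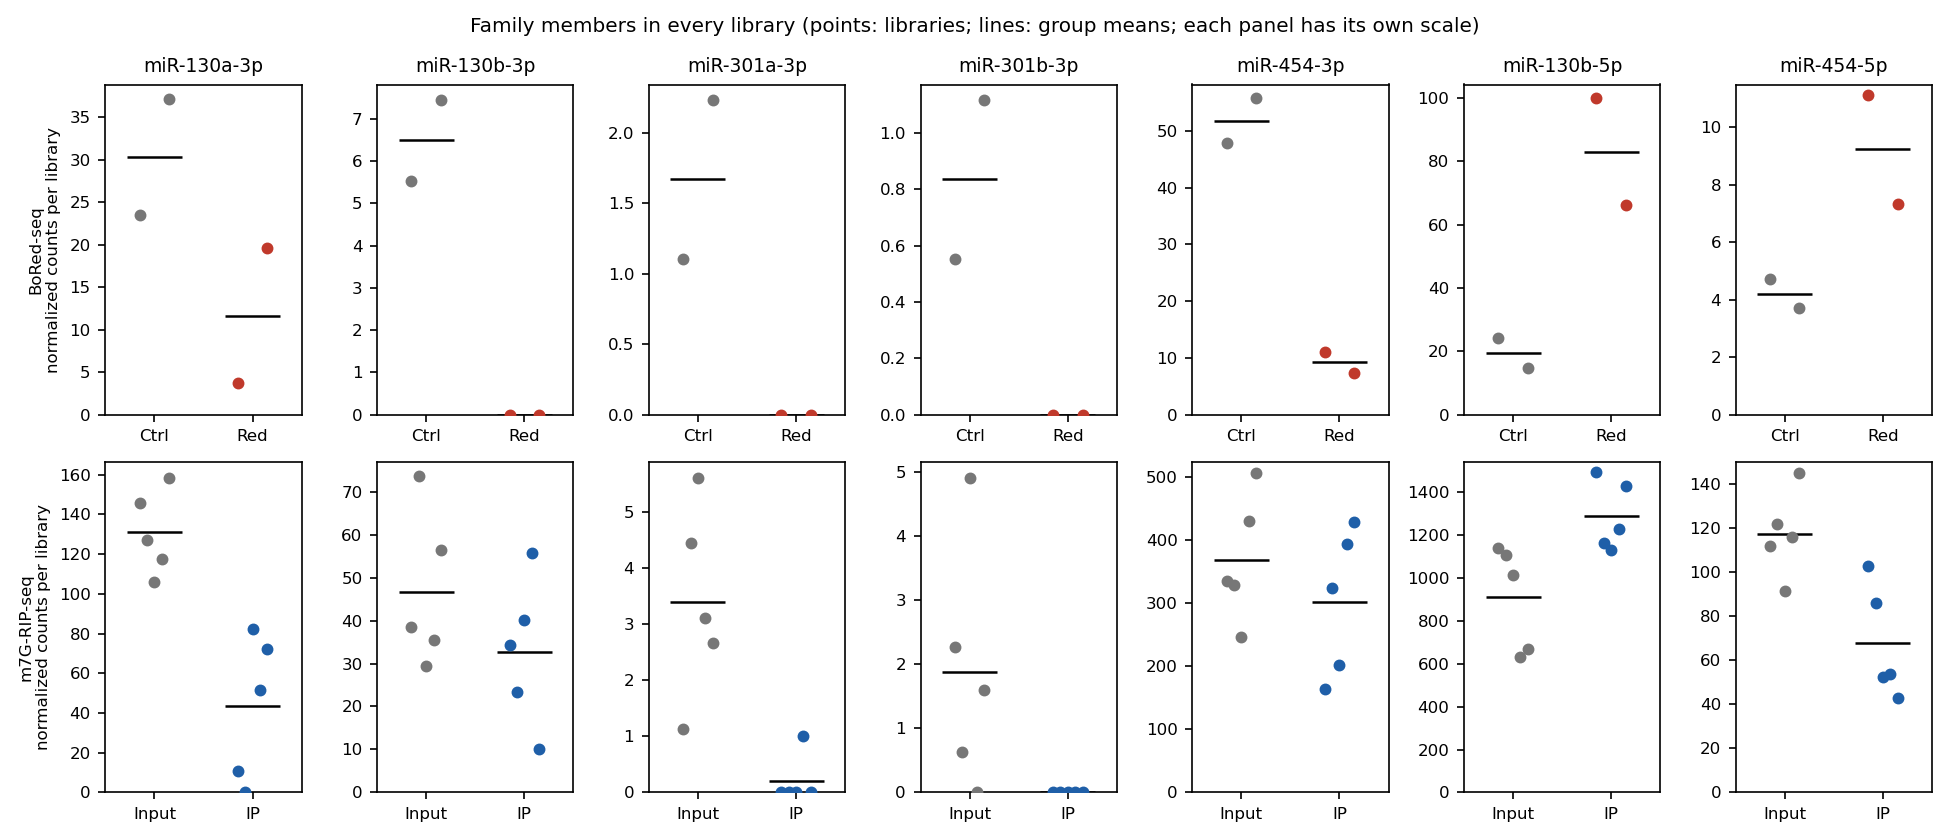
Normalized counts of the 7 members in each library, BoRed-seq above (Ctrl and Red, n = 2 each) and m7G-RIP-seq below (Input and IP, n = 5 each). Points are libraries, lines are group means and every panel has its own vertical scale from 0. hsa-miR-130b-5p is higher in Red than in Ctrl, while hsa-miR-454-3p is lower, and hsa-miR-130a-3p is lower in every IP library than in any Input library.

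Among the strands that carry the seed, only hsa-miR-130a-3p and hsa-miR-454-3p had a DESeq2 adjusted p in BoRed-seq, and 1 was depleted. edgeR also called hsa-miR-130b-3p depleted there (adjusted p = 0.0187), with both Red libraries at 0. In m7G-RIP-seq 0 of the 3 tested were called by DESeq2 or edgeR (1 at an unadjusted DESeq2 p under 0.05, hsa-miR-130a-3p). Of all microRNAs tested in that assay, 27.3% were called enriched and 29.9% depleted. The strand that DESeq2 called depleted in BoRed-seq was hsa-miR-454-3p, the most abundant seed strand of the family in each kind of control RNA. It had 173 and 150 counts in Ctrl and 3 and 3 in Red, where 15.9 counts would be expected in both Red libraries together at the Ctrl share. Its normalized counts, scaled by the median of ratios, were 47.9 and 55.8 in Ctrl and 11.1 and 7.34 in Red. Both Red libraries lay well below both Ctrl libraries. DESeq2 gave a log2 enrichment of -2.53 ± 0.85 (SE), a level 5.77-fold lower, with an adjusted p of 0.00613. For comparison, 27.2% of all microRNAs tested in BoRed-seq were called depleted, and 46.6% of those past the filter were lower in both Red libraries than in either Ctrl library. The call rests on 6 Red counts. It was lost when sizes were set by total counts (log2 -1.41, adjusted p = 0.200) and without Red replicate 1 (-2.44, adjusted p = 0.0641) or Red replicate 2 (-2.07, adjusted p = 0.117).

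In m7G-RIP-seq the groups of the same strand overlapped. Its normalized counts were 335, 328, 246, 430 and 506 in Input replicates 1 to 5 and 164, 325, 202, 393 and 429 in IP replicates 1 to 5. IP replicates 1 and 3 lay under every Input library and the remaining 3 did not, while within each of the 5 pairs of the same number IP was the lower. Its log2 enrichment was -0.28 ± 0.32 (SE, adjusted p = 0.465), with a 95% interval from -0.92 to 0.35, and with the replicate block it was -0.33 (adjusted p = 0.195).

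hsa-miR-130a-3p, from the intron of MIR130AHG on chromosome 11, passed the test in neither assay. Its counts were 85 and 100 in Ctrl and 1 and 8 in Red, with 9.11 expected in Red at the Ctrl share. Normalized counts were 23.5 and 37.2 in Ctrl against 3.70 and 19.6 in Red, so the groups did not overlap, but the Red libraries differed more from each other than the higher of them did from Ctrl. As CPM they overlapped, with 14.5 and 21.4 in Ctrl and 4.13 and 28.8 in Red. The log2 enrichment was -1.29 ± 0.93 (SE, adjusted p = 0.227), and it went to -0.09 with total-count sizes, -0.25 without Red replicate 1 and -2.88 without Red replicate 2.

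In m7G-RIP-seq hsa-miR-130a-3p had 146, 127, 106, 117 and 158 normalized counts in Input replicates 1 to 5 and 10.6, 0, 82.2, 51.7 and 72.3 in IP replicates 1 to 5. Every IP library lay below every Input library, as they did for 24.2% of microRNAs tested in this assay. IP replicates 1 and 2, with 8 and 0 raw counts, were far under the other 3 IP libraries. This gave a log2 enrichment of -1.60 ± 0.73 (SE), and its adjusted p of 0.0509 just missed the threshold. Fitted with the replicate number as a block, the value was -2.30 (adjusted p = 0.00406), and without IP replicate 2 it was -1.27 (adjusted p = 0.0129). It was -1.26 (adjusted p = 0.133) with total-count sizes. Replicates 1 to 3 alone gave -2.06 (adjusted p = 0.290) and replicates 4 and 5 alone -1.24 (adjusted p = 0.00754).

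hsa-miR-130b-3p had 20 and 20 counts in Ctrl and 0 and 0 in Red. Only 1.97 Red counts were expected at the Ctrl share. DESeq2 gave it no adjusted p, while edgeR called it depleted (adjusted p = 0.0187), a call that rests on Red counts of 0. In m7G-RIP-seq its normalized counts were 38.4, 73.7, 29.4, 35.4 and 56.5 in Input replicates 1 to 5 and 34.3, 23.4, 40.0, 55.7 and 10.2 in IP replicates 1 to 5. The groups overlapped widely, with IP replicate 4 level with the second highest Input library and IP replicates 2 and 5 under all of them. Its log2 enrichment was -0.52 ± 0.48 (SE, adjusted p = 0.354).

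The miR-301 strands were close to the limit of detection. hsa-miR-301a-3p had 4 and 6 counts in Ctrl and 0 in both Red libraries, where 0.492 counts were expected. In m7G-RIP-seq it had 1, 7, 8, 5 and 5 counts in Input replicates 1 to 5 and 1 count in IP replicate 4 alone, against 10.7 expected over the 5 IP libraries at the Input share. hsa-miR-301b-3p had 2 and 3 counts in Ctrl, 0 in Red, 13 over the 5 Input libraries and 0 in IP, where 5.35 were expected. Neither was tested, since both fell under the filter.

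A pair of 5p strands make up the rest of the family. hsa-miR-130b-5p was enriched in both assays, by a larger factor in BoRed-seq. It had 87 and 40 counts in Ctrl and 27 and 27 in Red, where 6.25 would be expected in both Red libraries together. As CPM these were 14.8 (95% Wilson interval 12.0 to 18.3) and 8.55 (6.28 to 11.6) in Ctrl, and 112 (76.7 to 162) and 97.3 (66.9 to 142) in Red. The intervals of the 2 groups lay far apart.

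Its normalized counts in BoRed-seq were 24.1 and 14.9 in Ctrl and 99.99 and 66.1 in Red. The log2 enrichment was 2.07 ± 0.58 (SE), a level 4.21-fold higher, with a DESeq2 adjusted p of 0.000775. In all, 32.2% of microRNAs tested were called enriched in BoRed-seq, and 34.9% of those past the filter were higher in both Red libraries than in either Ctrl library. The enrichment stayed between 1.32 and 3.15 and called under each other scaling, filter and tool tried, but was lost without Ctrl replicate 1 (1.70, adjusted p = 0.115) or Ctrl replicate 2 (1.19, adjusted p = 0.234).

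In m7G-RIP-seq hsa-miR-130b-5p had 1140, 1106, 1013, 630 and 667 normalized counts in Input replicates 1 to 5 and 1496, 1163, 1132, 1226 and 1428 in IP replicates 1 to 5. Input replicates 4 and 5 were low, and the lowest IP library was level with the highest Input library, so the groups just overlapped. On the CPM scale they did not, with 84.2 to 142 in Input and 179 to 233 in IP. The log2 enrichment was 0.50 ± 0.23 (SE), a level 1.42-fold higher, with a DESeq2 adjusted p of 0.0477. In this assay 27.3% of microRNAs were called enriched. By normalized counts 18.2% were higher in every IP library than in any Input library, and hsa-miR-130b-5p was not among them. The share separated on the CPM scale was not computed, and total-count sizes raised the median log2 enrichment of all microRNAs by 0.36.

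That call was close to the threshold. It was lost with edgeR (0.52, adjusted p = 0.0597), with no filter (0.47, adjusted p = 0.129), with sizes from total counts that leave out miR-21-5p (0.13, adjusted p = 0.611), and on leaving out any 1 of 7 of the 10 libraries, which gave 0.39 to 0.56. Those 7 libraries were Input replicates 3, 4 and 5 and IP replicates 1, 3, 4 and 5. The call held with total-count sizes (0.85, adjusted p = 6.3e-05), TMM sizes (0.52, adjusted p = 0.0328) and 10 counts in every library (0.52, adjusted p = 0.0361). It also held with the replicate block (0.54, adjusted p = 0.0289) and with a term that sets replicates 4 and 5 apart (0.54, adjusted p = 0.00542). The replicate sets differed too. In replicates 1 to 3 alone the log2 enrichment was 0.19 ± 0.17 (SE, adjusted p = 0.355), and in replicates 4 and 5 alone it was 0.95 ± 0.17 (SE, adjusted p = 7.7e-08). The difference of 0.75 ± 0.24 passed a z test (adjusted p = 0.0135), as it did for 17.4% of 620 microRNAs, and the split of the replicates was chosen with earlier results known.

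hsa-miR-454-5p, the partner of the most abundant seed strand, was depleted in m7G-RIP-seq and not called in BoRed-seq. Its normalized counts were 112, 122, 91.7, 116 and 145 in Input replicates 1 to 5 and 103, 86.1, 52.7, 53.7 and 43.1 in IP replicates 1 to 5. Of the IP libraries only replicate 1 reached into the Input range. The log2 enrichment was -0.79 ± 0.30 (SE), a level 1.73-fold lower, with a DESeq2 adjusted p of 0.0179, beside 29.9% of all microRNAs tested that were called depleted. It was lost with total-count sizes (-0.46, adjusted p = 0.199), with edgeR (-0.77, adjusted p = 0.0728), in replicates 1 to 3 alone (-0.45, adjusted p = 0.415), and without Input replicate 5 (-0.71), IP replicate 4 (-0.67) or IP replicate 5 (-0.63). Replicates 4 and 5 alone gave -1.51 (adjusted p = 0.00144), and the difference between the replicate sets, -1.07 ± 0.63 (SE), missed the threshold of the z test (adjusted p = 0.251).

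In BoRed-seq hsa-miR-454-5p had 17 and 10 counts in Ctrl and 3 and 3 in Red. Normalized counts were 4.70 and 3.72 in Ctrl and 11.1 and 7.34 in Red, which did not overlap. This was a log2 enrichment of 1.11 ± 1.30 (SE, adjusted p = 0.479), and with 6 Red counts its 95% interval ran from -1.45 to 3.66.

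**Figure D2:**
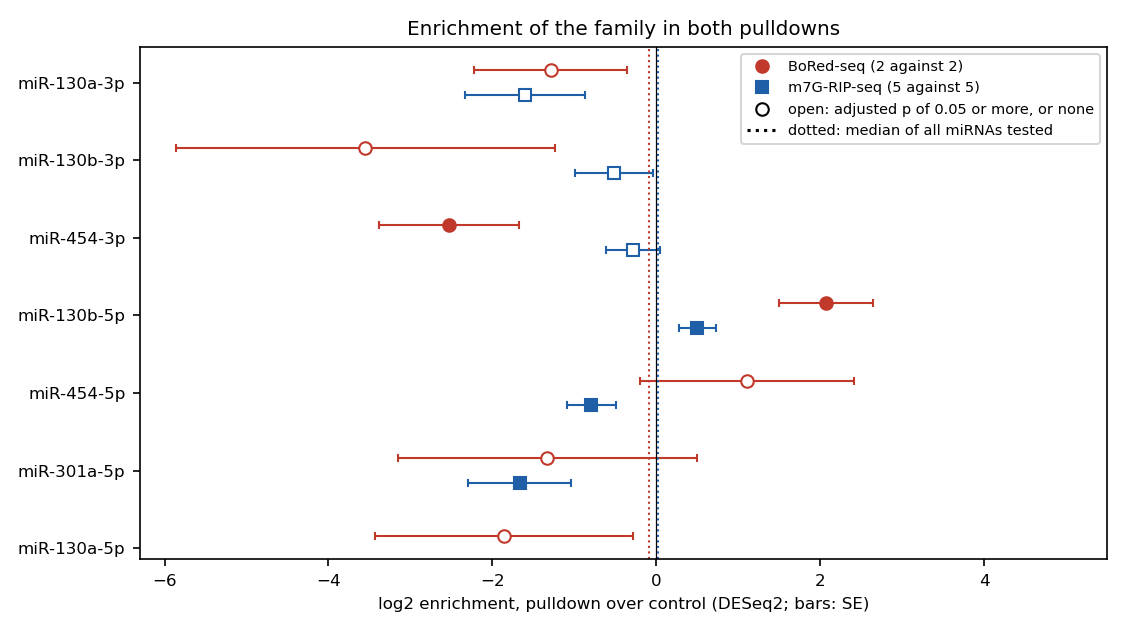
Log2 enrichment of each family strand and of other arms of the same hairpins, with its SE as the bar. Red circles are BoRed-seq (2 libraries against 2), blue squares m7G-RIP-seq (5 against 5), filled where the DESeq2 adjusted p is under 0.05, and dotted lines are the medians of all microRNAs tested. hsa-miR-130b-5p is filled in both assays at 2.07 and 0.50, hsa-miR-454-3p in BoRed-seq alone at -2.53, and hsa-miR-454-5p in m7G-RIP-seq alone at -0.79.

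Over the members with an adjusted p, BoRed-seq called 1 of 4 enriched and 1 of 4 depleted, beside 32.2% and 27.2% of all microRNAs tested. m7G-RIP-seq called 1 of 5 enriched and 1 of 5 depleted, beside 27.3% and 29.9%. The median log2 enrichment of all microRNAs tested was -0.09 and 0.02. The scaling matters for both signs, since setting sizes by total counts moved the median over all microRNAs by 1.14 (BoRed-seq) and 0.36 (m7G-RIP-seq), and leaving miR-21-5p out of the totals moved it by -0.71 and -0.36. hsa-miR-130b-5p kept its positive sign and hsa-miR-130a-3p and hsa-miR-454-5p their signs under each of these. hsa-miR-454-3p in m7G-RIP-seq did not, going to 0.02 with total-count sizes.

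The size of an enrichment was compared between the assays with a z test on the difference of the log2 values, among 384 microRNAs tested in both, of which 38.0% differed. hsa-miR-130b-5p was more enriched in BoRed-seq by 1.57 ± 0.62 (SE, adjusted p = 0.0321), and hsa-miR-454-3p was more depleted there, with a difference of -2.25 ± 0.91 (SE, adjusted p = 0.0376). With the replicate block the values were 1.57 (adjusted p = 0.0732) and -2.19 (adjusted p = 0.0819), so neither call held there. With total-count sizes they were 2.30 (adjusted p = 0.00079) and -1.43 (adjusted p = 0.240). The interaction term of 1 DESeq2 fit over both assays gave 1.12 (adjusted p = 0.0684) and -2.69 (adjusted p = 0.00467). hsa-miR-454-5p, with opposite signs in the assays, differed by 1.90 ± 1.34 (adjusted p = 0.260), and hsa-miR-130a-3p by 0.31 ± 1.18 (adjusted p = 0.868).

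The strands of a hairpin start from the same precursor. Their ratio within a library does not depend on how libraries are scaled, since both counts come from that library. For miR-130b, the 5p strand made up 81.3% and 66.7% of the hairpin's counts in the Ctrl libraries and all of the 27 counts in either Red library (95% Wilson interval 87.5% to 100%). The Red intervals lay above that of Ctrl replicate 2 and just met that of Ctrl replicate 1, which ended at 87.6%. For miR-454, where the 3p strand dominates, the 5p share was 8.95% (5.66% to 13.9%) and 6.25% (3.43% to 11.1%) in Ctrl and 50.0% (18.8% to 81.2%) in both Red libraries, from 3 counts of either strand. In these 2 hairpins the 5p share was thus higher in each Red library than in each Ctrl library. For miR-130a it was 19.8% and 30.1% in Ctrl and 50.0% and 11.1% in Red replicates 1 and 2, so the groups overlapped. Those Red values rest on 1 count of the 5p strand in each library, beside 1 and 8 of the 3p strand. How many other hairpins were separated in this way was not computed. With 2 libraries per group an exact permutation test cannot go below p = 0.333, so no test was made.

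In m7G-RIP-seq the arms of miR-130b and miR-454 did not move alike. The 5p share of miR-130b was 96.7%, 93.8%, 97.2%, 94.7% and 92.2% in Input replicates 1 to 5 and 97.8%, 98.0%, 96.6%, 95.7% and 99.3% in IP replicates 1 to 5. Of the IP libraries, 3 lay above every Input library. The mean log2 ratio of 5p to 3p counts was 4.31 ± 0.65 in Input and 5.46 ± 1.00 in IP (SD, n = 5), a difference of 1.15 with p = 0.0556 in a two-sided exact permutation test and 0.167 after adjustment over the 3 hairpins tested.

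The 5p share of miR-454 was 25.1%, 27.1%, 27.2%, 21.3% and 22.3% in Input replicates 1 to 5 and 38.6%, 21.0%, 20.7%, 12.0% and 9.14% in IP replicates 1 to 5. IP replicate 1 lay above the whole Input range and the other 4 below it. The log2 ratio was -1.62 ± 0.21 in Input and -2.13 ± 1.02 in IP (SD, n = 5), a difference of -0.51 (two-sided exact permutation p = 0.286, adjusted 0.286). Without IP replicate 1 the difference was -0.87 (exact permutation p = 0.00794, unadjusted). This was the only 1 of 10 fits without a library to go under 0.05, and the highest exact permutation p was 0.603. For miR-130a the difference was -1.64 (exact permutation p = 0.222, adjusted 0.286). The 5p strand of miR-130a had 0 counts in every IP library, so these ratios depend on the 0.5 added to each count. IP replicate 2 had no count of either strand and entered as a log2 ratio of 0. Without IP replicate 2 the difference was -2.83 (exact permutation p = 0.00794, unadjusted). That too was the only 1 of 10 such fits under 0.05, with a highest exact permutation p of 0.397.

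**Figure D3:**
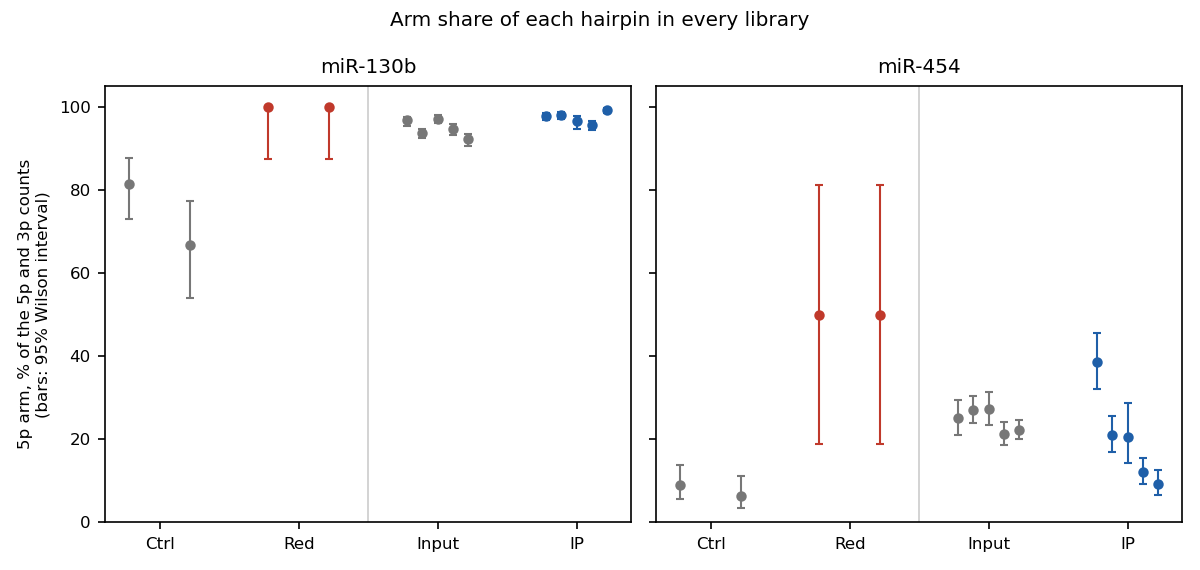
The 5p strand as a percent of the 5p and 3p counts of miR-130b (left) and miR-454 (right) in every library of the 4 groups, with 95% Wilson intervals as bars. For miR-130b the share is 100% in Red and above 92% in all m7G-RIP-seq libraries. For miR-454 it is 50.0% in both Red libraries with wide intervals, and in IP it runs from 9.14% to 38.6%.

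The other 5p strands of these hairpins, which the family list does not hold, were low in IP and had too few counts in Red to judge. hsa-miR-130a-5p had 8, 17, 14, 32 and 57 counts in Input replicates 1 to 5 and 0 in all 5 IP libraries, where 52.7 counts were expected at the Input share. It was at least 3.84-fold lower in IP, taking 3 counts per library as the limit. hsa-miR-301a-5p had 16, 20, 31, 51 and 73 counts in Input and 6, 13, 0, 6 and 6 in IP, replicates 1 to 5. It was depleted, with a log2 enrichment of -1.67 ± 0.63 (SE, adjusted p = 0.0154). That call was lost with total-count sizes (-1.37, adjusted p = 0.0566), with edgeR (-1.64, adjusted p = 0.0648), in replicates 1 to 3 alone (-1.12, adjusted p = 0.470) and without Input replicate 4 (-1.57) or 5 (-1.45).

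In BoRed-seq hsa-miR-130a-5p had 21 and 43 counts in Ctrl and 1 and 1 in Red, where 3.15 were expected at the Ctrl share. Its log2 enrichment was -1.86 ± 1.58 (SE, adjusted p = 0.316). hsa-miR-301a-5p had 33 and 12 counts in Ctrl and 0 and 2 in Red, where 2.22 were expected at the Ctrl share. hsa-miR-301b-5p reached at most 9 counts in any of the 14 libraries. The mature sequences of hsa-miR-130a-5p and hsa-miR-301a-5p are shown beside these values because the former was at 0 in IP and because the latter, like hsa-miR-130b-5p, holds the complement UUGCACU. Capitals again mark bases 2 to 8.
hsa-miR-130a-5p: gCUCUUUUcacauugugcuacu
hsa-miR-301a-5p: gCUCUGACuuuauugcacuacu
hsa-miR-130a-5p and hsa-miR-130b-5p thus share CUCUUU at bases 2 to 7, but only the latter was called enriched. The former fell under the filter in m7G-RIP-seq, and no difference between them was tested. The remaining human microRNAs with the family seed, hsa-miR-3666 and hsa-miR-4295, had 0 counts in all 14 libraries.

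**Figure D4:**
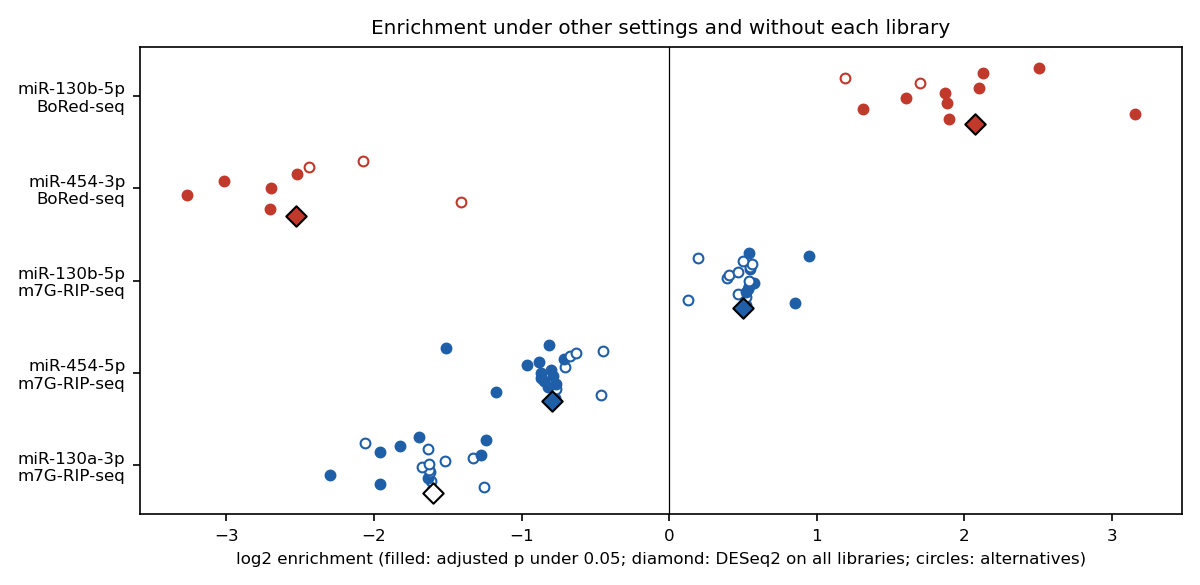
Log2 enrichment of the members that were called, or nearly called, in BoRed-seq (red) and m7G-RIP-seq (blue), with diamonds for DESeq2 on all libraries and circles for other scalings, filters, tools, replicate sets and single libraries left out. Symbols are filled where the adjusted p is under 0.05. No value crosses 0, and open circles for hsa-miR-130b-5p in m7G-RIP-seq run from 0.13 to 0.56.

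The family seed shares the 5-base core AGUGC with other microRNA families, among them miR-17 and miR-106, known for promoting the cell cycle, and miR-148 and miR-152. The core was searched within bases 2 to 8 on the microRNA strand and was found in 37 listed microRNAs outside the family. In m7G-RIP-seq 9 of the 11 tested were depleted and 0 enriched by DESeq2 (also 0 enriched at an unadjusted p under 0.05 and 0 by edgeR), beside 29.9% and 27.3% of all microRNAs tested. The median log2 enrichment was -2.46 against 0.02 for all microRNAs. In BoRed-seq 5 of 11 were depleted and 1 enriched, beside 27.2% and 32.2% of all microRNAs tested, with a median of -0.77 against -0.09.

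Among those with a mean of at least 100 normalized counts, the lowest in m7G-RIP-seq were hsa-miR-106b-5p at -3.59 ± 0.38 (adjusted p = 9.05e-20) and hsa-miR-17-5p at -3.10 ± 0.23 (adjusted p = 1.8e-38). These relatives are close copies of one another, and reads may be shared between them. The highest were hsa-miR-152-3p at 0.06 ± 0.23 (adjusted p = 0.836) and hsa-miR-148b-3p at -0.84 ± 0.26 (adjusted p = 0.00272). The seed strands of the family, at -1.60, -0.52 and -0.28 for miR-130a, miR-130b and miR-454, lay between these extremes and above the median of the list. The 1 enriched in BoRed-seq was hsa-miR-20b-5p at 4.17 ± 0.74 (adjusted p = 8.56e-08), named after its value was seen. It was scarce there, with a mean of 3.57 normalized counts in Ctrl and 62.6 in Red. In m7G-RIP-seq it was not called (-0.89 ± 0.96, adjusted p = 0.440), with a mean of 30.9 normalized counts.

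**Figure D5:**
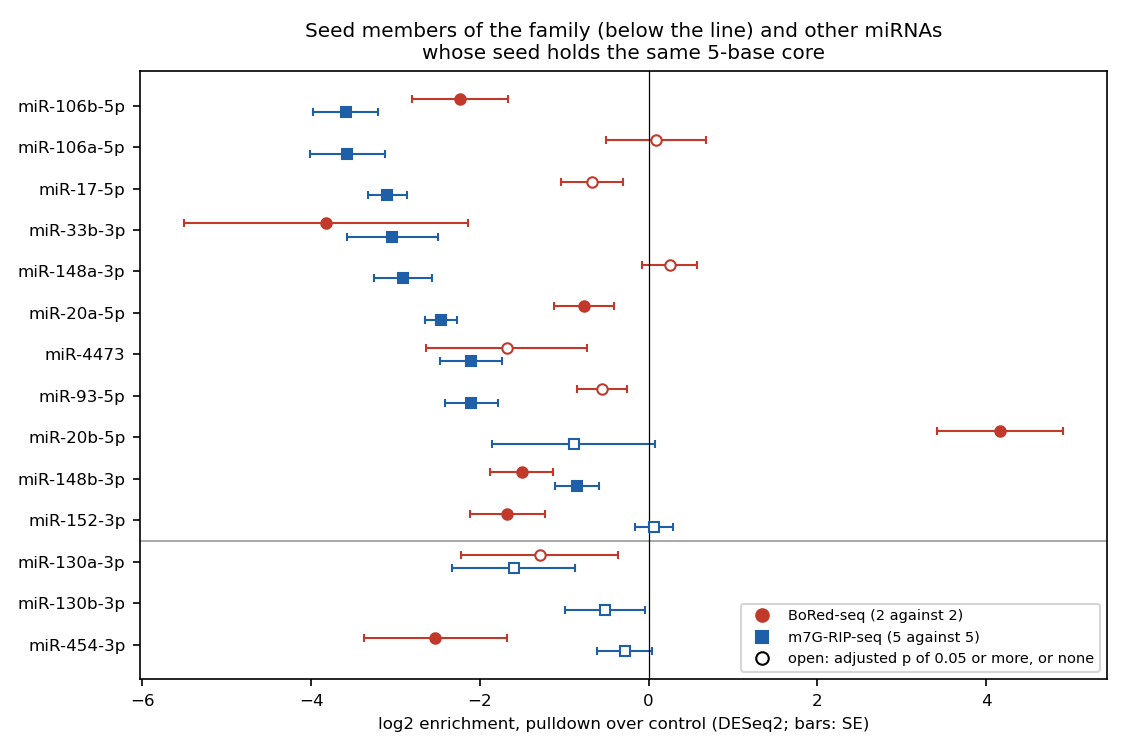
Log2 enrichment ± SE of microRNAs whose seed holds AGUGC, ordered by m7G-RIP-seq above the grey line, and of the 3 seed strands of the family with an adjusted p below it. Red circles are BoRed-seq and blue squares m7G-RIP-seq, filled at an adjusted p under 0.05. The median above the line is -2.46 in m7G-RIP-seq, and the family strands run from -1.60 to -0.28.

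Across the 10 m7G-RIP-seq libraries, the profile of hsa-miR-130b-5p was most like those of hsa-miR-1180-3p (Pearson r = 0.938), hsa-miR-219a-1-3p (r = 0.896) and hsa-miR-6511a-5p (r = 0.881), among 312 microRNAs with a mean of at least 100 normalized counts. Their log2 enrichments were 0.47, 1.45 and 1.71. hsa-miR-454-3p was most like hsa-miR-151a-5p (r = 0.872), hsa-miR-7976 (r = 0.868) and hsa-miR-149-5p (r = 0.862), with log2 enrichments of -0.08, -1.05 and -0.62, none of them called. These correlations are descriptions over libraries that share their group and their size factors. Between the strands of miR-130b, r was -0.36, and between those of miR-454 it was 0.11.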

How the data were processed

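Mature microRNAs were counted in 4 BoRed-seq and 10 m7G-RIP-seq small RNA libraries. The authors deposited raw counts of reads per mature microRNA, 1 table per assay, not normalized and with replicates kept apart. They trimmed adaptors with Trimmomatic and counted reads over miRBase with featureCounts on hg38. The methods of the study name STAR as the aligner, the submitters' processing notes Bowtie2. Reads with several best matches were kept up to a limit, so near-identical strands may share counts.

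Groups came from the labels. Counts were tested with the DESeq2 1.42.0 Wald test in R 4.3.3 (the study's test), Red against Ctrl and IP against Input, in separate fits over all microRNAs with at least 10 counts in 2 or 5 libraries. Size factors were medians of ratios, and log2 values are unshrunken. Adjusted p-values are Benjamini-Hochberg values of this test unless another is named. DESeq2 gave none to 53 BoRed-seq microRNAs. The test was tried on simulated counts first. Arm ratios used log2 of counts plus 0.5 and exact permutation tests over libraries, for hairpins with a median of at least 10 counts per arm in at least 1 group of the assay. The assay difference used a two-sided z test.

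The members, lists and tests were chosen with earlier results of these data known. Besides the members, the named microRNAs are the other arms of their hairpins, those with the same seed, the 3 closest profiles of the most abundant 3p and 5p member in Input, and the 2 highest and 2 lowest of the core-seed list in m7G-RIP-seq at a mean of at least 100 normalized counts.

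Chi-square over degrees of freedom was at least 10.4 for each pair of replicates, so none was counted as a repeat of another. Between m7G-RIP-seq Input libraries it was 25.8 to 150 within replicates 1 to 3 or 4 and 5, and 438 to 655 across these sets. Between IP libraries it was 46.6 to 79.9 within the sets and 757 to 1382 across them. The main fit holds no term for the sets. Replicate numbers come from the sample titles. In m7G-RIP-seq the deviations of same-numbered IP and Input libraries from their group means correlated in all 5 pairs (0.179, 0.152, 0.146, 0.310 and 0.387). Only in replicates 1 and 5 were the libraries of a pair the best match of each other. Whether the numbers pair the samples is therefore uncertain, and the replicate block was used only as an alternative. Alternatives were other scalings, filters, edgeR 4.0.16, the replicate block, replicate sets 1 to 3 and 4 to 5, and leaving out each library. The arm ratios within replicate sets and the z test between the sets were added after seeing the data.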

Additional observations from a re-analysis of the deposited data

Results flagged for a closer look

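In 3 results an effect differed between conditions by a test of the difference itself. The log2 enrichment of hsa-miR-130b-5p was 1.57 higher in BoRed-seq than in m7G-RIP-seq, and that of hsa-miR-454-3p differed by -2.25 (z test). Neither passed the threshold with the replicate block (adjusted p = 0.0732 and 0.0819). In m7G-RIP-seq the enrichment of hsa-miR-130b-5p was 0.75 higher in replicates 4 and 5 than in replicates 1 to 3, where its Input level was also higher (1013 to 1140 normalized counts, against 630 and 667 in Input replicates 4 and 5). What set the replicate sets apart was not tested. In the 16 groups of 5 libraries examined for a single outlying library, counts of 5 members and arm ratios of 3 hairpins, 0 passed Dixon's 95% limit, which chance alone would pass in about 1 group of 20.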

How the results depend on the processing

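Of 176 fitted values of members and other arms under alternatives, 175 kept their direction, the exception being hsa-miR-454-3p in m7G-RIP-seq with total-count sizes (0.02). Whole-table calls moved most in BoRed-seq. Enriched calls (129) went to 71 with 10 counts required in every library, and to 81 to 97 on leaving out a library. Depleted calls (109) went to 46 with total counts, 167 with total counts without miR-21-5p, 167 with edgeR, 71 with 10 counts in every library, and 67 to 82 without a library. In m7G-RIP-seq depleted calls (200) went to 116 with 10 counts in every library and 163 to 204 without a library, and enriched calls (183) to 164 to 181. The share of calls that were enriched was 54.2% in BoRed-seq and 79.2%, 37.7% and 43.4% with total counts, total counts without miR-21-5p and edgeR, and 47.8%, 58.6%, 36.6% and 47.4% in m7G-RIP-seq.

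BoRed-seq hsa-miR-454-3p was -1.41 with total counts and -2.44 to -2.07 without a Red library. Without a Ctrl library it fell under the filter and has no value. hsa-miR-130b-5p was 1.19 to 2.50 without a library. hsa-miR-130b-3p was called by edgeR (-6.53, adjusted p = 0.0187), with both Red libraries at 0. In m7G-RIP-seq hsa-miR-130a-3p became called with TMM (-1.61), total counts without miR-21-5p (-1.96), no filter (-1.64), the replicate block (-2.30), replicates 4 and 5 alone (-1.24), a term for that set (-1.69) and without IP replicate 2, 3 or 5 (range over libraries -1.96 to -1.27). hsa-miR-130b-5p was not called with total counts without miR-21-5p (0.13), edgeR (0.52), no filter (0.47) and replicates 1 to 3 alone (0.19), and ran from 0.39 to 0.57 without a library. hsa-miR-454-5p was not called with total counts (-0.46), edgeR (-0.77) and replicates 1 to 3 alone (-0.45), and ran from -0.97 to -0.63. The assay difference was not called for hsa-miR-130b-5p with an interaction term (1.12) or the replicate block (1.57), nor for hsa-miR-454-3p with total counts (-1.43) or the replicate block (-2.19). Besides these, the replicate block, or pairing, changed no call of a member. In BoRed-seq same-numbered libraries share only a number (correlation of deviations 0.110, 2 pairs). The cause of these changes was not tested.

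The BoRed-seq arm ratio of miR-130b (4.24) was 3.29 with a pseudocount of 1 and 3.69 to 4.80 without a library. That of miR-454 (3.58) ran from 3.31 to 3.84, and that of miR-130a (0.35) from -0.90 to 1.60. In m7G-RIP-seq, miR-130a ran from -2.83 to -1.12, miR-130b from 0.75 to 1.40 and miR-454 from -0.87 to -0.22 without a library, and replicates 4 and 5 alone gave -4.31, 1.90 and -1.23, against 0.15, 0.65 and -0.02 in replicates 1 to 3 alone. With a pseudocount of 1 miR-130a gave -0.90. Its 5p strand had 0 counts in every IP library, so its IP ratios depend on the pseudocount. The 0.15 in replicates 1 to 3 includes IP replicate 2, which had no count of either strand and entered as a log2 ratio of 0. Values in Red rest on few counts, and the miR-301 strands had too few counts to be tested.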

Other observations

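hsa-miR-130b-5p and hsa-miR-454-5p belong to a small class of microRNAs with at most 2 guanines, 199 of the 2370 mature sequences in the table (8.40%). A sequence was found for 355 of the 400 microRNAs tested in BoRed-seq and for 602 of 670 in m7G-RIP-seq. The median of these held 6 guanines. In BoRed-seq 6 of the 25 tested with at most 2 guanines were called enriched (24.0%), beside 32.7% of 330 with more. Besides hsa-miR-130b-5p these were hsa-let-7b-3p, hsa-let-7f-1-3p, hsa-miR-1249-3p, hsa-miR-1260b and hsa-miR-7977, named after their values were seen. In m7G-RIP-seq 10 of 45 were called enriched (22.2%), beside 28.9% of 557 with more. hsa-let-7b-3p, hsa-miR-1249-3p and hsa-miR-130b-5p were the only ones of this class called enriched in both assays. Whether the shares differ between the classes was not tested.

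Summed over the family, CPM were 66.0 and 70.3 in Ctrl, 140 and 148 in Red, 171 to 221 in Input and 245 to 295 in IP. On this scale, which moves with the share of the most abundant microRNAs, every pulldown library held more of the family than any control library of its assay. How many microRNAs were separated on this scale was not computed, and total-count sizes raised the median log2 enrichment of all microRNAs by 1.14 and 0.36. hsa-miR-130b-5p alone made up 22.4% and 12.2% of the family's counts in Ctrl and 79.4% and 65.9% in Red. Its part was 43.4% to 67.7% in Input and 68.8% to 82.8% in IP. The part from the seed strands was 48.3 and 59.6 CPM in Ctrl and 16.5 and 39.6 in Red, and 44.7 to 91.5 in Input and 32.4 to 76.7 in IP.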
